A study of Glycine max with 23 samples.

Results

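The bZIP transcription factor genes of soybean (Glycine max) were followed through the compartments of the young seed. All soybean probe sets annotated to 1 gene were searched for a gene symbol starting with BZIP, and the probe set with the highest mean of log2(signal + 16) stood for each gene. This gave 58 bZIP genes of the 6031 genes that had at least 1 probe set to themselves, measured by 89 of the 37593 soybean probe sets on the Affymetrix Soybean Genome Array. Of the 58 genes, 35 had 1 probe set and 23 had several.

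Proteins of the bZIP family carry a basic region that contacts DNA and a leucine zipper through which they pair, and most plant members bind DNA sites built around the letters ACGT. In plants the family is known for responses to abscisic acid, light, stress and sugar, and in maturing seeds for switching on storage and desiccation genes. Of the members described here, BZIP1 carries the synonym AREB1, a name given to factors that bind abscisic acid response elements, and BZIP36 the synonym SOYSTF1A, a soybean relative of the light-response factor HY5 of Arabidopsis. BZIP62, BZIP110 and BZIP132 have been studied for stress tolerance in transgenic plants.

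All 23 arrays came from the soybean cultivar Asgrow A3237, grown at 22 °C under 16 h of light and 8 h of darkness, with no mutant, transgene or treatment in any group. Seeds with heart-stage embryos, from pods of 1.3 to 2.0 cm, were sectioned at 8 µm, and laser capture gave embryo proper, suspensor (the stalk that carries the embryo) and endosperm with 3 arrays each, and the seed coat regions hilum, epidermis, outer integument, inner integument and endothelium with 2 arrays each. Whole seeds of the same stage and leaves of 1.5 to 2.5 cm were ground and had 2 arrays each. The replicates are labelled biological but not tied to plants, so the p-values reflect the spread among these samples alone, and the number of arrays limits the precision.

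A probe set counted as above background where its signal passed the 95th percentile of the array's 23350 pathogen probe sets. That background was 420.1 signal units on suspensor replicate 1 and 404.9 on endosperm replicate 1, against 86.3 to 231.4 on the other arrays, and between 24 and 46 bZIP genes passed it per array. Several marker genes followed the labels and others did not. The homeobox gene H1 averaged 7766 in the embryo proper and at most 327 elsewhere, the embryo regulator gene LEC1-A averaged 1854 to 11475 in embryo proper, suspensor and endosperm and at most 130 in the coat, and the MADS-box gene AGL1L averaged 8627 to 19671 in the coat regions and 21.1 in leaf. Of the other 4 coat markers, MADS28 (3456 to 10156) and SEP1 (1535 to 5719) were above background on every coat array, ANR1 averaged 95.3 in outer integument and 334 in inner integument against 3605 to 16146 in the other coat regions, and HPS stayed at 12.9 to 163 in all of them. The endosperm marker MFT averaged 3553 in endosperm and 1777 in suspensor. The 1 marker fixed for the suspensor, GA20OX3, was higher in embryo proper (mean 723) than in suspensor (268), so no listed marker set the suspensor apart. AGL1L also averaged 2126 in suspensor against 63.5 in embryo proper. The remaining embryo markers followed their label less closely. WRI1B averaged 1914 in endosperm and 1460 in embryo proper. PHANa averaged 9809 in embryo proper, 3844.5 in leaf and 228 in suspensor, and PHANb 2502 in leaf against 930 in embryo proper. The leaf marker RCA14 averaged 30841 in leaf, while CAB3 was high in embryo proper, epidermis and outer integument as well. RCAALPHA (21761) and RCA11 (2344) were also highest in leaf, but RCABETA averaged 3100 in epidermis and 2235 in leaf.

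Of the 58 bZIP genes, 18 were above background on every array of all 10 groups, 25 reached that in 1 to 7 of the 8 captured compartments, and 15 in none of them. The hilum and the outer integument each held 37 bZIP genes above background on every array, the suspensor 21 (24, 39 and 36 on its single arrays), the whole seed 45 and the leaf 43. Of all soybean probe sets, 13378, 20015 and 18352 were above background on the suspensor arrays and 19986 and 20097 on the hilum arrays. Whole seed had 22494 and 22751, and leaf 23480 and 23564. The bZIP counts per group are therefore not read as a trait of the family. The tests used the 47 genes that passed background throughout 1 or more groups. The other 11 (BZIP21, BZIP35, BZIP44, BZIP47, BZIP58, BZIP61, BZIP69, BZIP72, BZIP81, BZIP82 and BZIP112) stayed dim, 8 of them above background on no array. Signals were compared as log2(signal + 16) with limma, in 1 model of the 10 groups, with Benjamini-Hochberg adjustment over 25686 soybean probe sets. Called genes had an adjusted p below 0.05 and differed by 2-fold or more. Folds refer to that log2 scale, and errors are standard errors. The offset of 16 narrows the folds of dim genes, but it lies under every array's background (86.3 to 420.1). Signals below background can therefore widen a fold. A fold without "at least" can be too wide where part of the dimmer side was below background. In tissue samples fewer cells of a type and less RNA per cell cannot be told apart.

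Across the 8 captured compartments 26 of the 47 tested bZIP genes differed by limma's F test (55.3%), beside 52.8% of all probe sets tested. The distance from the lowest to the highest compartment mean had a median of 2.24 log2 units over the bZIP genes (range 0.70 to 7.46) and of 2.10 over all tested probe sets. The highest compartment was the inner integument for 12 genes (25.5%, against 16.7% of all probe sets), the hilum for 9 (19.1% against 9.44%), the suspensor for 7 and the outer integument for 6. It was the embryo proper for 3 and the endosperm for 3 (6.38% each, against 13.6% and 20.1% of all). In the 9 contrasts 26 genes were called at least once, 16 of them more than once and 10 once. The share of all probe sets called at least once is not given. In single contrasts it ran from 6.53% to 23.1%, so this count is not read as a trait of the family. BZIP111 was called in a contrast and not by the F test, and BZIP121 the other way round.

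**Figure D1:**
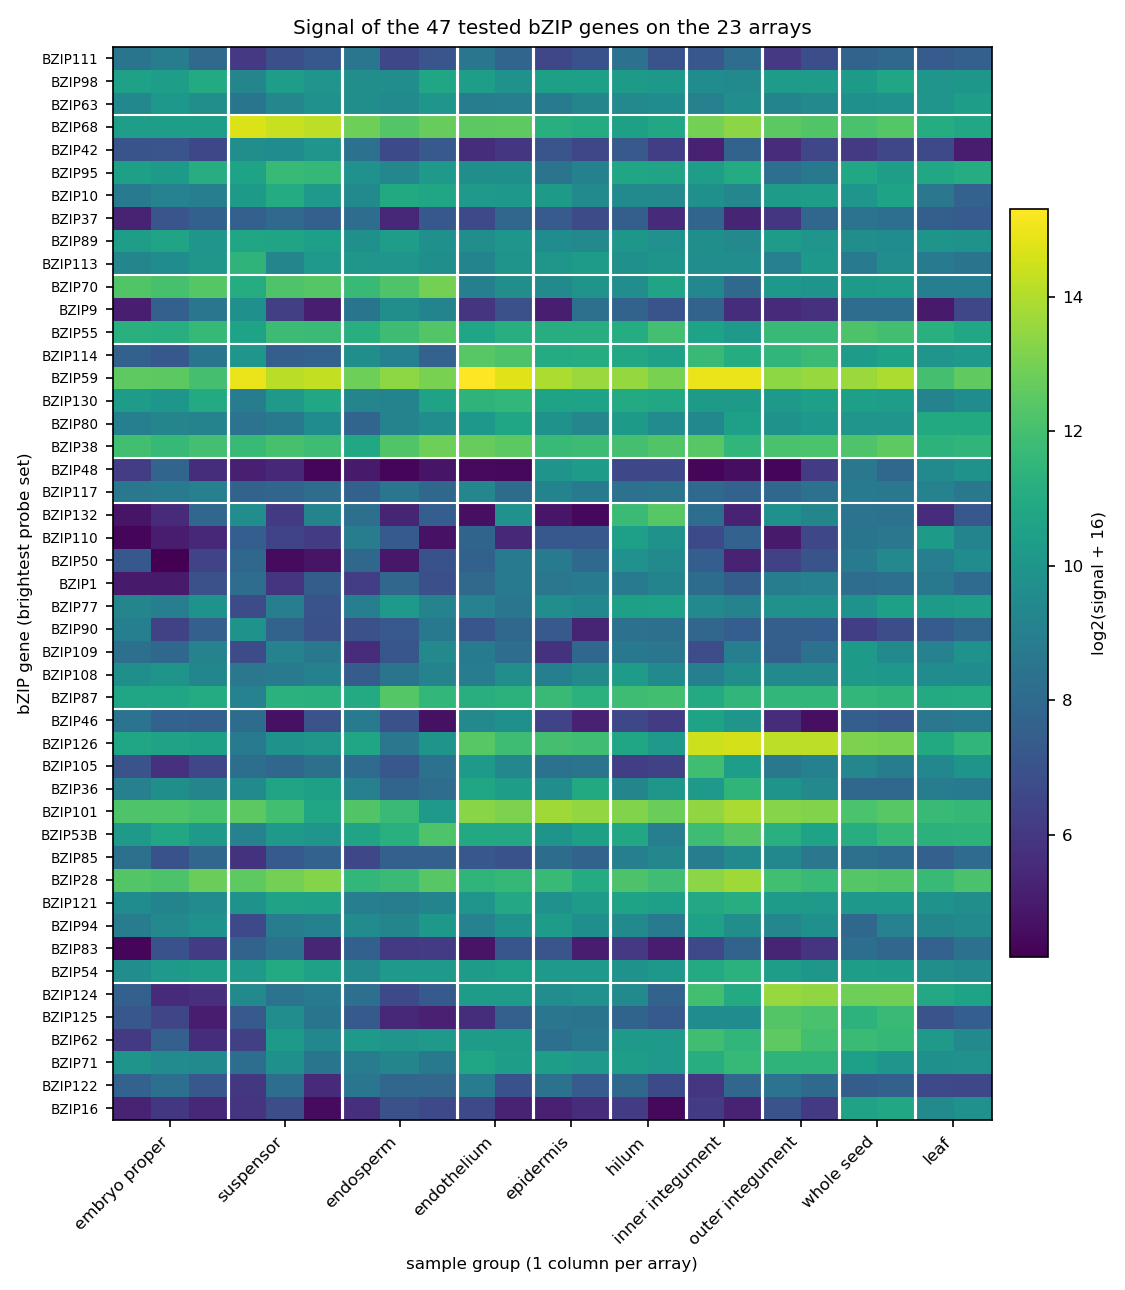
Signal as log2(signal + 16) of the 47 tested bZIP genes (rows, brightest probe set of each) on the 23 arrays (columns, by sample group), with rows grouped by the captured compartment of the highest mean. The inner integument block is the largest with 12 genes, and BZIP68 in suspensor and BZIP124 in outer integument stand out from their rows.

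In the comparison of the maternal seed coat with embryo and endosperm, most of the called bZIP genes were higher in the coat. Of the 47 genes, 12 were higher in the mean of the 5 coat regions than in the 3 inner compartments (embryo proper, suspensor and endosperm) and 2 were lower (29.8% called), beside 21.5% of all probe sets. The median difference was 0.35 log2 units over the bZIP genes and -0.03 over all tested probe sets. BZIP124, BZIP114 and BZIP126 were the 3 with the widest difference, and BZIP70 had its 10 lowest captured signals in the coat.

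BZIP114 gave signals of 1479.3 to 5440.4 on the 10 coat arrays (median 2512.8) and of 137.5 to 1029.7 on the 9 others (median 190.2). No coat array overlapped them, and both endothelium arrays (5440.4 and 4661.6) were the brightest. The coat mean was 8.42-fold higher (log2 difference 3.07 ± 0.30, adjusted p = 5.8e-08). BZIP126 ranged from 1147.2 to 24863.9 in the coat (median 4748.5) and from 369.5 to 1728.0 in embryo and endosperm (median 1066.4). Hilum replicate 2 (1147.2) was the coat array within the range of the others, hilum replicate 1 (1732.4) lay just above it, and the other 4 regions lay well above. The coat mean was 6.44-fold higher (2.69 ± 0.23, adjusted p = 6.7e-09). BZIP124 ranged from 192.7 to 12185.0 in the coat (median 1233.9) and from 29.0 to 710.8 in the other 3 compartments (median 176.6). Hilum replicate 2 (192.7) and hilum replicate 1 (706.9) were the coat arrays within the range of the others. The coat mean was 9.21-fold higher (3.20 ± 0.30, adjusted p = 2.4e-08), with 4 of the 9 embryo and endosperm arrays above background.

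BZIP62, BZIP125 and BZIP1 were also higher in the coat, with overlap between the sides. BZIP62 had a coat median of 1227.2 (289.8 to 5869.7) and a median of 653.4 in embryo and endosperm (34.1 to 1209.5), a 4.53-fold difference (2.18 ± 0.37, adjusted p = 7e-05). BZIP125 had a coat median of 349.2 (34.2 to 5115.2) against 132.4 (16.9 to 773.7), a 3.97-fold difference (1.99 ± 0.37, adjusted p = 0.00021) with a wide spread among the coat regions. BZIP1, the gene with the synonym AREB1, had signals of 161.4 to 574.7 in the coat (median 419.0) and of 15.5 to 271.1 in the other compartments (median 103.4). Its coat signals overlapped the rest only through suspensor replicate 1 (271.1) and endosperm replicate 2 (215.7), and the fold was 3.90 (1.97 ± 0.34, adjusted p = 9.9e-05). BZIP101, one of the 3 bZIP probe sets with the highest mean log2(signal + 16), gave 7034.4 to 15408.8 on the coat arrays (median 10119.0) and 1136.8 to 5791.5 on the others (median 4320.8). The sides did not overlap, and the difference was 2.98-fold (1.58 ± 0.23, adjusted p = 1.4e-05). BZIP71 (3.14-fold, adjusted p = 1.1e-06), BZIP50 (at least 1.16-fold, adjusted p = 0.0087), BZIP105 (2.65-fold, adjusted p = 0.00024), BZIP85 (2.23-fold, adjusted p = 0.0032) and BZIP110 (2.30-fold, adjusted p = 0.043) completed the 12. Of the coat regions, only hilum had BZIP110 above background on both arrays (mean 1148). The other coat regions averaged 47.5 to 138, under endosperm (201). BZIP50 was below background in inner and outer integument (means 95.2 and 90.55, against 118 in endosperm).

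The pattern of BZIP70 ran the other way. Its signals were 2145.6 to 8103.8 in embryo proper, suspensor and endosperm (median 4883.8) and 240.9 to 1614.4 in the coat (median 789.8). All 9 arrays of the first group lay above all 10 of the second. BZIP70 was 5.93-fold lower in the coat (-2.57 ± 0.23, adjusted p = 1.5e-08), and embryo proper, suspensor and endosperm did not differ from each other beyond their spread (adjusted p = 0.51 to 0.91). BZIP42 was 3.17-fold lower (-1.66 ± 0.36, adjusted p = 0.00083), with its suspensor arrays, described below, the highest of the 9. On every embryo proper and endosperm array it was below background. It entered the tests through the suspensor alone, so this call is not independent of the filter and is not a difference from embryo proper or endosperm.

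Another probe set of BZIP1 (log2 difference 0.13, adjusted p = 0.79) and of BZIP105 (0.33, adjusted p = 0.44) was not called. Another tested probe set of BZIP114 was called (1.69, adjusted p = 3.6e-06). Among coat regions, however, its mean was lowest in endothelium (403) and highest in outer integument (987). Of the other probe sets of BZIP62, 1 was called (1.22, adjusted p = 0.014) and 1 was not (0.42, adjusted p = 0.27), and another of BZIP101 passed the test at 0.82 (adjusted p = 0.00075) without reaching 2-fold. The call of BZIP110 was lost under 23 of 35 alternative settings, most of them leaving out 1 array (adjusted p up to 0.11 among those, without endothelium replicate 1) and 1 of them the replicate block (0.82, adjusted p = 0.21), and that of BZIP85 fell below 2-fold without suspensor replicate 1 (0.97).

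**Figure D2:**
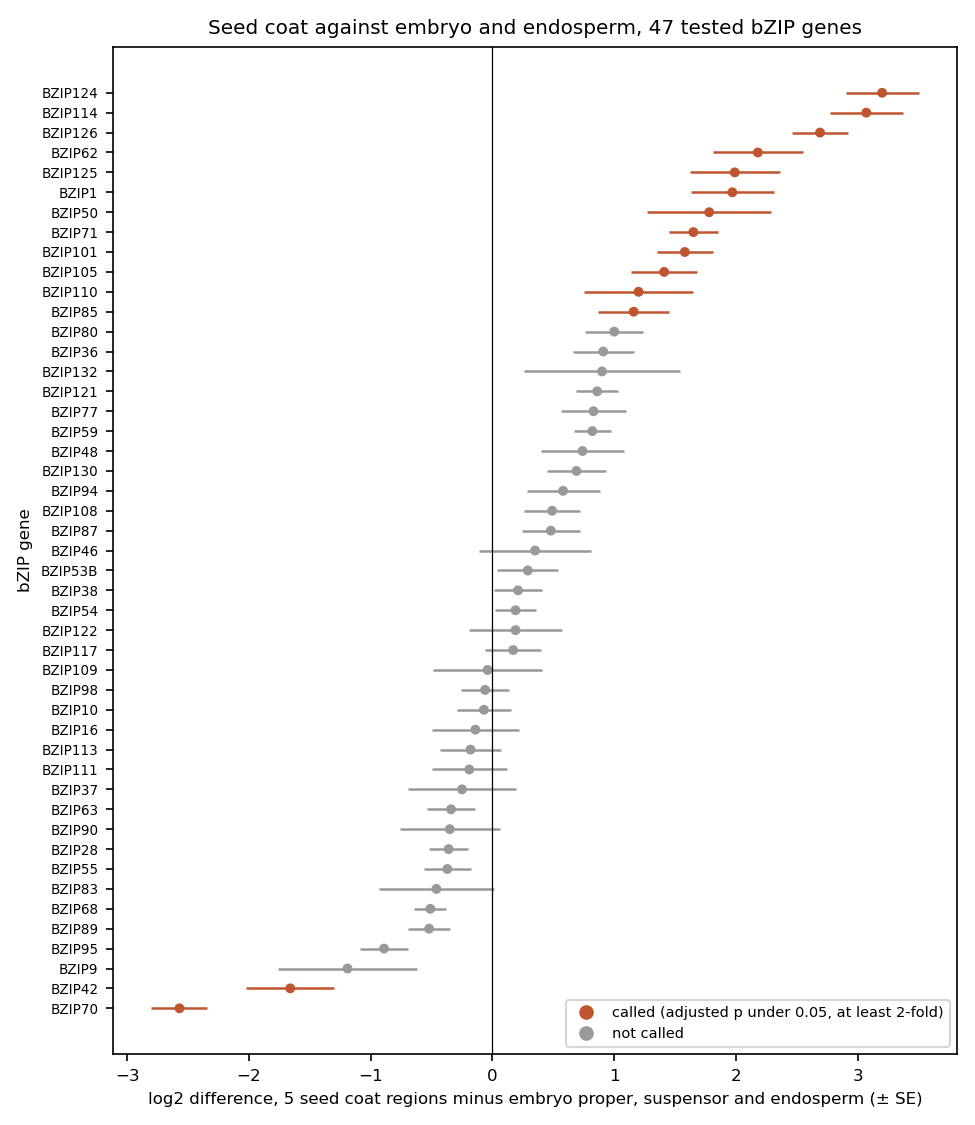
Log2 difference between the mean of the 5 seed coat regions and that of embryo proper, suspensor and endosperm for the 47 tested bZIP genes, with bars of 1 standard error and the called genes in orange. The 12 higher genes run from BZIP85 (1.16) to BZIP124 (3.20), and BZIP42 (-1.66) and BZIP70 (-2.57) are the 2 lower ones.

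Within the embryo, embryo proper was compared with suspensor, and most of the called bZIP genes were higher in suspensor. Of the 47 genes 8 were higher in suspensor and 2 in embryo proper (21.3% called), beside 23.1% of all probe sets, of which 54.8% were higher in embryo proper. With the arrays scaled to equal medians the counts were 9 and 2, and the median of all probe sets moved from 0.07 to -0.07. BZIP68 had the widest difference of all 47 in this contrast.

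BZIP68 gave 1324.8, 1334.7 and 1317.8 in embryo proper and 26648.7, 20980.7 and 18475.3 in suspensor. Every suspensor array was also above every other array of the series, the nearest being inner integument replicate 2 at 10431.6. The gene was 16.2-fold higher in suspensor than in embryo proper (log2 difference, embryo proper minus suspensor, -4.02 ± 0.23, adjusted p = 1.4e-10). It was 3.43-fold higher in suspensor than in endosperm (adjusted p = 4.4e-06) and 2.37-fold higher than in inner integument (adjusted p = 0.00078).

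BZIP42 gave 807.1, 756.4 and 986.0 in suspensor and 120.2, 122.7 and 79.5 in embryo proper, where it was above background on no array. No other array of the series passed 313.5 (endosperm replicate 1). The gene was at least 5.79-fold higher in suspensor (log2 difference -2.82 ± 0.63, adjusted p = 0.002), and at least 3.48-fold above endosperm, the next compartment, where it was above background on no array (2.30 ± 0.63, adjusted p = 0.01). By fitted differences it was 1 of 4 bZIP genes that exceeded all 7 other compartments by 4-fold or more with an adjusted p below 0.05 (8.51%, beside 3.68% of all probe sets). Its bounds over endosperm and inner integument (at least 3.90-fold) lay under 4-fold. BZIP42 was above background on every array of the suspensor alone, so it entered the tests only through the group where it is high. Its calls for suspensor and against the coat, and its place in the 8.51%, are therefore not independent of that filter. BZIP59, the bZIP probe set with the highest mean log2(signal + 16), gave 32321.8, 18286.6 and 19770.2 in suspensor and 5997.4, 5746.7 and 4112.0 in embryo proper, a 4.34-fold difference (-2.12 ± 0.26, adjusted p = 3.5e-06). Its suspensor signals did not differ from those in inner integument (adjusted p = 0.22) or endothelium (adjusted p = 0.19) beyond the spread.

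BZIP124 gave 710.8, 322.0 and 403.1 in suspensor and 176.6, 29.0 and 35.7 in embryo proper. The groups did not overlap, 1 embryo proper array was above background, and the fold was 6.12 (-2.61 ± 0.53, adjusted p = 0.00082). BZIP125 gave 140.4, 773.7 and 351.1 against 132.4, 75.5 and 16.9, at least 2.40-fold higher in suspensor (-2.22 ± 0.66, adjusted p = 0.016). BZIP62 was variable in suspensor, with 61.7, 1209.5 and 653.4 against 51.8, 177.1 and 34.1. The groups overlapped through suspensor replicate 1, and the fold was 4.60 (-2.20 ± 0.65, adjusted p = 0.016). BZIP10 (2.86-fold, adjusted p = 0.0064) and BZIP105 (at least 1.87-fold, adjusted p = 0.012) were higher in suspensor as well.

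The genes higher in embryo proper were BZIP77 and BZIP111. BZIP77 gave 580.4, 469.0 and 894.9 in embryo proper and 91.6, 477.8 and 116.1 in suspensor, overlapping through suspensor replicate 2 (3.35-fold, 1.74 ± 0.48, adjusted p = 0.0093). BZIP111 gave 344.4, 439.6 and 246.1 against 49.1, 103.6 and 137.1, all 3 suspensor values being below background (at least 1.59-fold, 1.72 ± 0.55, adjusted p = 0.026). Another probe set of BZIP77 pointed the opposite way without a call (-0.48, adjusted p = 0.71).

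Seed coat markers moved with this contrast. All 5 listed coat markers averaged higher in suspensor than in embryo proper, and their summed signal was 288 to 394 in embryo proper, 1663 to 5785 in suspensor and 18928 to 48276 in the coat regions, with HPS below background on every suspensor array. BZIP124, BZIP125, BZIP62 and BZIP105 were higher in the coat as well as in suspensor. BZIP68 and BZIP42 were above every coat array in each suspensor array. The part of coat RNA in the suspensor signal was not tested for any of these genes.

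Calls that depended on 1 array were those of BZIP62 (adjusted p = 0.064 and 0.086 without embryo proper replicate 1 or 3, 0.11 and 0.074 without suspensor replicate 2 or 3), BZIP125 (0.11 without embryo proper replicate 3, 0.089 without suspensor replicate 2), BZIP105 (0.076 without embryo proper replicate 2), BZIP77 (0.053 without embryo proper replicate 3) and BZIP111 (0.069 and 0.1 without embryo proper replicate 1 or 2, 0.098 without suspensor replicate 1). Of the other probe sets of BZIP62, 1 was called (-1.85, adjusted p = 0.0096) and 1 was not (-0.89, adjusted p = 0.37), and another of BZIP105 was not called (-1.42, adjusted p = 0.064).

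**Figure D3:**
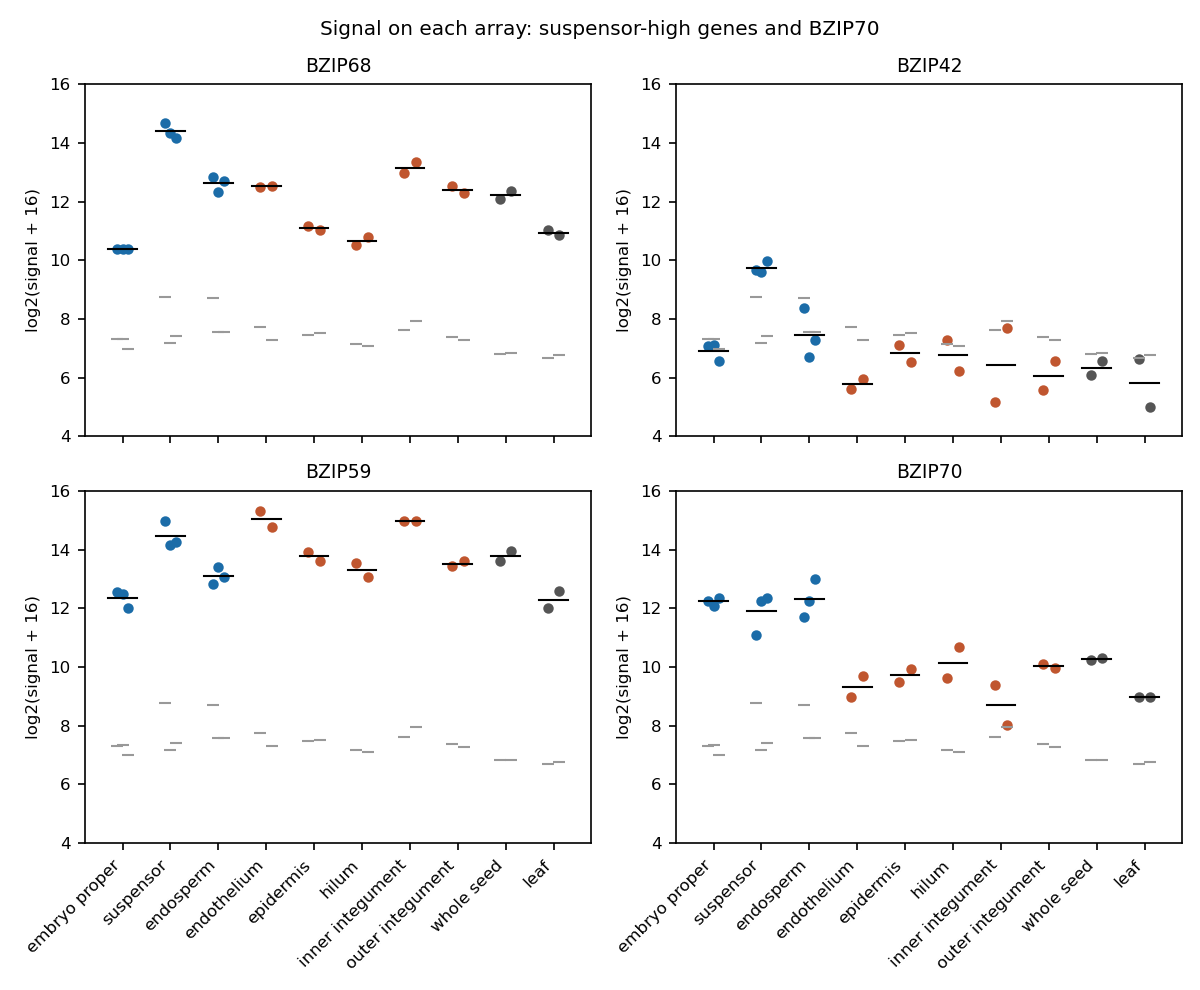
Signal as log2(signal + 16) of BZIP68, BZIP42, BZIP59 and BZIP70 on each array by sample group, with dots for arrays (blue for embryo and endosperm, orange for seed coat, grey for whole seed and leaf), black lines for group means of these log2 values and short grey marks for each array's background. The suspensor dots of BZIP68 (18475.3 to 26648.7 signal units) lie above all others, and BZIP70 divides into a high group of 9 and a low group of 10 captured arrays.

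Endosperm was then compared with the mean of embryo proper and suspensor, a contrast that shares arrays with the one before. Of the 47 bZIP genes 2 were higher in endosperm and 2 lower (8.51% called), beside 19.2% of all probe sets. BZIP62 gave 1118.8, 991.8 and 1169.2 in endosperm and 34.1 to 1209.5 in the 6 embryo and suspensor arrays (median 119.4). The endosperm arrays were close together and suspensor replicate 2 was the array above them (5.94-fold, 2.57 ± 0.57, adjusted p = 0.002). Against embryo proper alone the difference was 12.7-fold (adjusted p = 0.00026), and against suspensor 2.77-fold (adjusted p = 0.11). BZIP53B gave 1603.3, 2369.8 and 4862.6 in endosperm against 537.5 to 1754.6 (median 1154.6), a 2.46-fold difference with overlap (1.30 ± 0.38, adjusted p = 0.018).

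BZIP36, the relative of HY5, gave 499.4, 211.3 and 270.4 in endosperm and 504.4 to 1603.4 in the 6 other arrays (median 771.2). It was 2.71-fold lower without overlap (-1.44 ± 0.39, adjusted p = 0.0094). Suspensor held 3.68-fold more than endosperm (adjusted p = 0.0033), and for embryo proper the difference was not past the threshold (2.00-fold, adjusted p = 0.13). BZIP95 gave 866.0, 619.0 and 1158.2 against 1205.0 to 3312.2 (median 1892.1), 2.29-fold lower (-1.20 ± 0.31, adjusted p = 0.0067). The count was sensitive to single arrays. It was 8 without suspensor replicate 1, 7 without endosperm replicate 1, 8 without both of these high-background arrays, and 2 without endosperm replicate 2, where BZIP36 (adjusted p = 0.071) and BZIP95 (0.061) were lost. BZIP53B was lost without endosperm replicate 3 (adjusted p = 0.15), the array captured with another microscope. The part of the microscope was not tested.

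Every coat region was set against the average of the remaining 4, and these contrasts share their 10 arrays (2 against 8). In the outer integument 4 bZIP genes were higher and 2 lower (12.8% called), beside 7.01% of all probe sets. BZIP125 gave 5115.2 and 4442.6 there and 34.2 to 752.4 on the other coat arrays (median 268.6). It was 17.9-fold higher (4.16 ± 0.64, adjusted p = 0.00014) and 6.25-fold above inner integument, the next compartment (adjusted p = 0.03). BZIP124 gave 12185.0 and 11307.2 against 192.7 to 3922.4 (median 1055.7), 11.3-fold higher (3.50 ± 0.51, adjusted p = 8.3e-05) and 4.16-fold above inner integument (adjusted p = 0.037). Neither gene's outer integument arrays overlapped any other captured array, and both genes passed the criterion for a single compartment.

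BZIP126 gave 18560.1 and 18731.1 in outer integument and 22637.4 and 24863.9 in inner integument, against 1147.2 to 5381.0 in the other 3 regions. The integuments did not differ from each other beyond the spread (1.27-fold, adjusted p = 0.73). BZIP126 was called 3.76-fold higher in the outer (1.91 ± 0.40, adjusted p = 0.0031) and 5.09-fold higher in the inner integument (2.35 ± 0.40, adjusted p = 0.00016). BZIP62 gave 5869.7 and 3931.8 in outer integument, above the other coat arrays (289.8 to 3782.1), a 4.21-fold difference at the threshold (2.07 ± 0.63, adjusted p = 0.05).

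The lower genes were BZIP46 (33.7 and 8.8, below background, against 20.3 to 1581.2, at least 1.61-fold lower, adjusted p = 0.026) and BZIP95 (286.4 and 392.3 against 336.8 to 2053.8, 2.87-fold lower, adjusted p = 0.0062). Leaving out an array of a 2-array region leaves 1 array, whose spread is taken to be that of the other groups. Without either outer integument array 2 genes stayed called. BZIP126 (adjusted p = 0.07 and 0.077 without replicate 1 or 2), BZIP95 (0.19 and 0.054), BZIP46 (0.12 and 0.4, and 0.051 without epidermis replicate 1) and BZIP62 (0.46 and 0.22) were lost, and BZIP62 was lost under 24 of 35 settings in all. Another probe set of BZIP62 was called (1.79, adjusted p = 0.027) and another was not (1.23, adjusted p = 0.37). Both had a higher mean in inner integument (721 and 401) than in outer integument (712 and 255). The compartment of the highest BZIP62 signal therefore depends on the probe set.

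**Figure D4:**
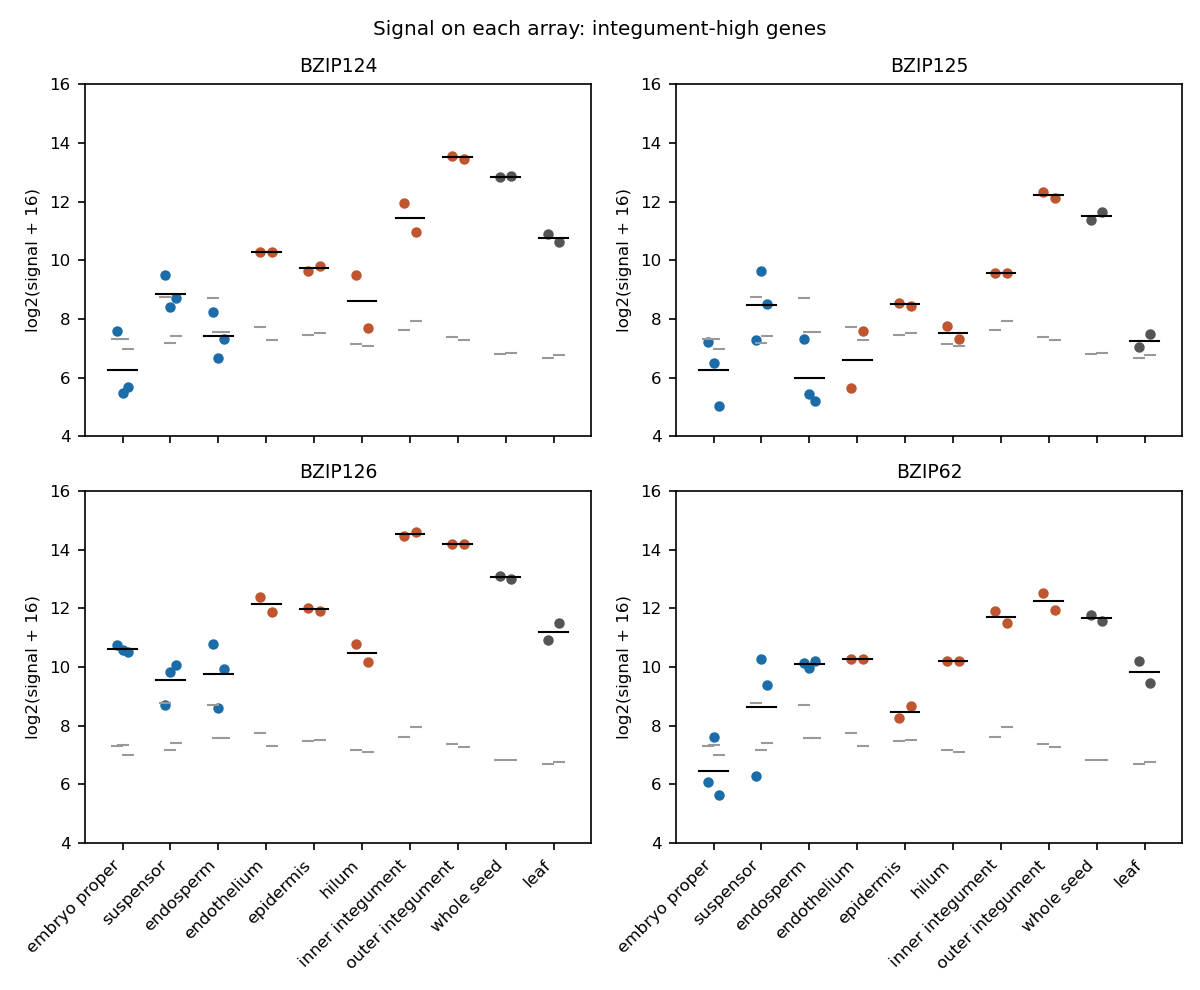
Signal as log2(signal + 16) of BZIP124, BZIP125, BZIP126 and BZIP62 on each array by sample group, drawn with dots for arrays, black lines for group means of the log2 values and short grey marks for each array's background. For the probe sets drawn, the outer integument holds the highest captured values of BZIP124 (11307.2 and 12185.0 signal units), BZIP125 and BZIP62. BZIP126 is at 22637.4 and 24863.9 in the inner integument.

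The inner integument had 8 bZIP genes higher and 1 lower (19.1% called), beside 18.8% of all probe sets, of which 40.7% were higher. BZIP46 gave 1581.2 and 991.2 there, and endothelium was the next region with 662.2 and 855.7. The remaining coat arrays stayed at or below 79.1, and the gene was 12.0-fold higher than the mean of the other 4 regions (3.59 ± 0.79, adjusted p = 0.0022). Inner integument and endothelium did not differ beyond the spread (1.65-fold, adjusted p = 0.75). BZIP105 gave 3818.7 and 1293.6 against 59.0 to 1147.4 (median 354.2), 7.0-fold higher (2.81 ± 0.46, adjusted p = 0.00011). BZIP28, among the 3 probe sets with the highest mean log2(signal + 16), gave 10509.4 and 13379.4 against 2034.0 to 4714.4 on the other coat arrays (median 3317.7), 3.59-fold higher without overlap (1.85 ± 0.27, adjusted p = 3.4e-05). Its suspensor signals (6015.9, 8047.3 and 9593.3) did not differ from the inner integument beyond the spread (adjusted p = 0.16).

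BZIP53B gave 3628.3 and 5105.9 against 474.4 to 2402.6 (3.00-fold, adjusted p = 0.01), and BZIP68 gave 8110.5 and 10431.6 against 1447.5 to 5939.9 (2.82-fold, adjusted p = 3.5e-05), both without overlap. BZIP95 (2.41-fold, adjusted p = 0.011) and BZIP59 (2.10-fold, adjusted p = 0.0042) were higher with overlap. BZIP48 was called lower at 4.1 and 8.3 signal units, but both values and most of the other coat arrays were below background, so no fold is given. Another probe set of BZIP59 was called (1.86, adjusted p = 0.0016) and another was not (1.05, adjusted p = 0.16). The brightest probe set of BZIP62 was not called here (1.40), but its other tested ones were (1.77, adjusted p = 0.013, and 2.01, adjusted p = 0.03). Without inner integument replicate 2 the count was 5, and BZIP53B (adjusted p = 0.17), BZIP95 (0.22), BZIP59 (0.057) and BZIP48 (0.076, and 0.087 without replicate 1) were lost.

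At the hilum, the scar where the seed joins the pod, 3 bZIP genes were higher and 5 lower (17.0% called), beside 9.09% of all probe sets. BZIP132 gave 3438.4 and 5474.8, and the other coat arrays 5.4 to 885.5 (median 147.6). Both hilum arrays were the highest of the series for this gene, while replicates elsewhere were far apart, such as 9.1 and 885.5 in endothelium. The difference was 33.3-fold (5.06 ± 1.10, adjusted p = 0.0041). Against outer integument alone it was 5.85-fold and not past the threshold (adjusted p = 0.42). BZIP110 gave 1392.1 and 903.2 against 15.4 to 203.7 (median 111.4), 10.9-fold higher (3.45 ± 0.78, adjusted p = 0.0056), and 9.07-fold above endosperm (adjusted p = 0.015). BZIP95 gave 1745.6 and 1643.9 (2.52-fold higher, adjusted p = 0.015) and did not differ from inner integument beyond the spread (adjusted p = 0.96).

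The lower genes included BZIP126 (1732.4 and 1147.2 against 3699.4 to 24863.9, 6.61-fold, adjusted p = 7.8e-05), BZIP124 (706.9 and 192.7 against 781.2 to 12185.0, 6.27-fold, adjusted p = 0.0015) and BZIP68 (1447.5 and 1779.4 against 2094.0 to 10431.6, 3.11-fold, adjusted p = 3.2e-05). BZIP105 gave 59.0 and 65.2, below background, against 314.0 to 3818.7, at least 5.30-fold lower (-3.25 ± 0.46, adjusted p = 5.5e-05). These 4 genes had every hilum array below every other coat array. The share of all probe sets without overlap is not given for this or the other coat region contrasts, so this count is not read as a trait of the family. BZIP59 was 2.03-fold lower (adjusted p = 0.012) with overlap.

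Without hilum replicate 2 the hilum count was 3. BZIP132 (adjusted p = 0.055 and 0.11 without replicate 1 or 2), BZIP110 (0.14 and 0.062) and BZIP95 (0.19 and 0.15) were lost without either hilum array, BZIP124 (0.19) and BZIP59 (0.33) without replicate 2. BZIP59 also fell under 2-fold without endothelium replicate 1 (-0.95), epidermis replicate 1 (-0.98) or outer integument replicate 2 (-1.0). Another probe set of BZIP105 was not called (-1.13, adjusted p = 0.22), while another of BZIP110 was (2.74, adjusted p = 0.0096).

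In the epidermis 1 bZIP gene was higher and 4 were lower (10.6% called), beside 7.88% of all probe sets. BZIP48 gave 957.3 and 1222.2 in epidermis and 3.9 to 80.8 on the other coat arrays, all of them below background. It was at least 6.33-fold higher (4.93 ± 0.58, adjusted p = 7e-06), and no captured array outside the epidermis passed 211.2 (embryo proper replicate 2). Hilum, with both arrays below background, was the next compartment (at least 7.85-fold, adjusted p = 0.0049). BZIP48 was the 1 bZIP gene at the 4-fold criterion for the epidermis, and its bounds over the 6 compartments where no array passed background were at least 4.44-fold to at least 7.85-fold. BZIP48 was also above background in leaf (699.6 and 915.2) and whole seed (380.6 and 230.7).

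BZIP62 gave 289.8 and 394.4 in epidermis, below all other coat arrays (1152.0 to 5869.7), 6.21-fold lower (-2.64 ± 0.63, adjusted p = 0.0099). BZIP132 was below background in epidermis (12.7 and 5.4) and at least 2.64-fold lower (adjusted p = 0.016). BZIP68 (2.13-fold, adjusted p = 0.0025) and BZIP95 (2.19-fold, adjusted p = 0.043) were lower with overlap. Without epidermis replicate 1 or 2 the count was 2 or 1. BZIP62 (adjusted p = 0.17 and 0.087), BZIP132 (0.13 and 0.18) and BZIP95 (0.48 and 0.11, lost under 17 of 35 settings) were lost without either, and BZIP68 without replicate 2 (0.075). Of the other probe sets of BZIP62, 1 was called (-2.41, adjusted p = 0.0026) and 1 was not (-0.30, adjusted p = 0.87).

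In the endothelium, the innermost coat layer, 2 bZIP genes were higher and 3 lower (10.6% called), beside 6.53% of all probe sets. BZIP59 gave 40438.7 and 28178.7 there against 8532.3 to 32299.6 (2.22-fold higher, 1.15 ± 0.25, adjusted p = 0.0057), overlapping with the inner integument. BZIP46, with the values given above, was 6.42-fold higher (adjusted p = 0.043). BZIP125 gave 34.2 and 176.8 against 144.8 to 5115.2 (7.18-fold lower, -2.84 ± 0.64, adjusted p = 0.0064), and BZIP85 gave 132.2 and 111.0, below background, against 192.1 to 704.4 (at least 2.45-fold lower, adjusted p = 0.041). BZIP48 was called lower at 6.0 and 5.2 signal units, again without a fold. The endothelium count was 0 without endothelium replicate 1, where BZIP59 (adjusted p = 0.29), BZIP125 (0.4) and BZIP48 (0.24) were lost, and 2 without replicate 2, where BZIP48 had an adjusted p of 0.14. BZIP46 was lost under 20 of 35 settings (adjusted p up to 0.28) and BZIP85 under 17 (up to 0.27), most often without 1 array of another region. Neither other probe set of BZIP59 was called (1.12, adjusted p = 0.11, and 0.76, adjusted p = 0.51).

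**Figure D5:**
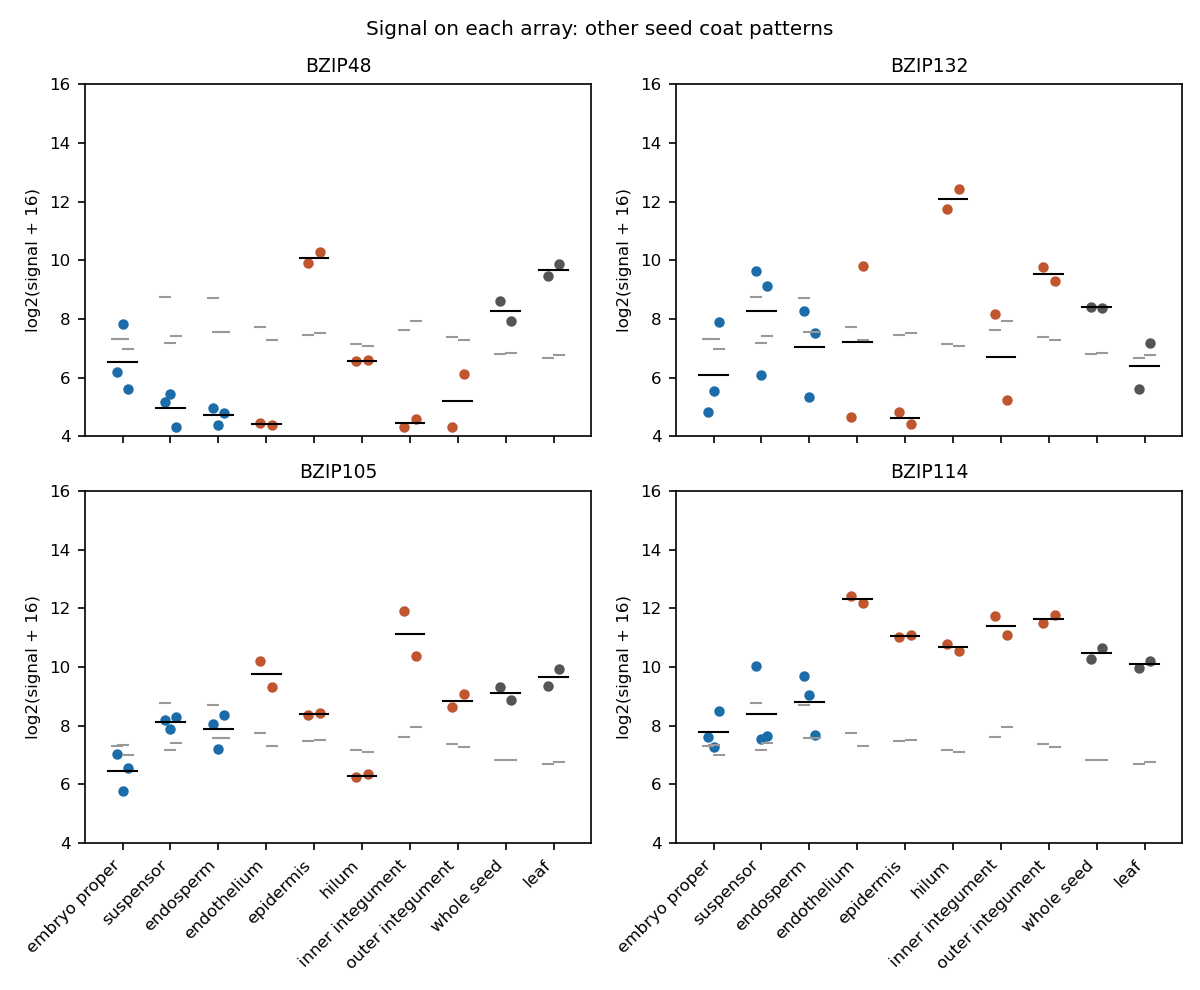
Signal as log2(signal + 16) of BZIP48, BZIP132, BZIP105 and BZIP114 on each array by sample group, drawn with dots for arrays, black lines for group means of the log2 values and short grey marks for each array's background. BZIP48 passes background among captured arrays in the epidermis (957.3 and 1222.2 signal units) and 1 embryo proper array, BZIP132 peaks in the hilum, and BZIP105 is lowest in hilum and embryo proper.

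All 6 bZIP genes called between the ground samples, whole seed and leaf, were higher in whole seed (12.8% called), beside 13.2% of all probe sets, of which 39.1% were higher in whole seed. At an unadjusted p below 0.05 by limma, 10 bZIP genes were higher and 0 lower. The split of all probe sets at that unadjusted threshold is not given, so this count is not read as a trait of the family. Scaled to equal medians, 5 bZIP genes were called higher and 0 lower, 26.3% of the called probe sets were higher in whole seed, and the median of all probe sets moved from 0.12 to -0.13. BZIP125 gave 2644.9 and 3228.9 in whole seed and 115.8 and 164.2 in leaf, 19.1-fold higher (4.25 ± 0.81, adjusted p = 0.00083). BZIP124 gave 7310.1 and 7474.5 against 1890.0 and 1586.4 (4.24-fold, adjusted p = 0.035), and BZIP126 gave 8752.2 and 8220.6 against 1922.2 and 2864.5 (3.60-fold, adjusted p = 0.015). BZIP10 gave 1012.7 and 1579.3 against 366.2 and 186.5 (4.60-fold, adjusted p = 0.0029). BZIP59 (2.80-fold, adjusted p = 0.0027) and BZIP68 (2.42-fold, adjusted p = 0.0029) completed the 6. None of the 6 had overlapping arrays, with 2 arrays on each side, and the share without overlap over all probe sets is not given.

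The whole seed count was 1 without whole seed replicate 2, where BZIP125 stayed called and BZIP10 (adjusted p = 0.07), BZIP59 (0.058), BZIP68 (0.059), BZIP124 (0.17) and BZIP126 (0.086) did not, and 3 without leaf replicate 1, where BZIP59 (0.067), BZIP124 (0.12) and BZIP126 (0.15) were lost. BZIP124 was also lost without whole seed replicate 1 (0.15) or leaf replicate 2 (0.2), BZIP126 without whole seed replicate 1 (0.094), and BZIP10 without leaf replicate 2 (0.08). Neither other probe set of BZIP59 was called (1.22, adjusted p = 0.12, and 1.69, adjusted p = 0.096).

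BZIP16 was detected in the ground samples and in no captured one. It gave 1521.1 and 1796.7 in whole seed and 712.9 and 892.3 in leaf, and was below background on all 19 captured arrays, where it reached at most 114.3. Of 20947 soybean probe sets above background on both whole seed arrays, 157 (0.75%) behaved so, and 1 of the 45 bZIP genes detected there. Captured and ground samples differ in fixation and in the RNA extraction kit, and the part of either was not tested.

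The 21 tested genes without a call in any contrast spanned 0.70 to 3.47 log2 units between their lowest and highest compartment (median 1.39), and 9 of them were above background on every array of all 10 groups. BZIP38, BZIP87, BZIP98 and BZIP113 are examples, with spans of 0.85, 1.35, 1.11 and 0.70. BZIP9 had the widest span of these (3.47), with 346.7, 798.4 and 571.1 in endosperm and 30.5 and 38.6 in outer integument, but its suspensor replicates gave 849.1, 61.0 and 18.9 and the F test was not passed (adjusted p = 0.227).

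Over the means of the 8 compartments, 16 genes spanned at least 8-fold, and their 120 pairs had a median Pearson correlation of -0.01. These values describe 8 points that share libraries and carry no test. The highest were BZIP124 with BZIP125 (r = 0.88), BZIP124 with BZIP126 (0.85), BZIP1 with BZIP114 (0.84) and BZIP62 with BZIP124 (0.81), and the lowest was BZIP70 with BZIP114 (-0.93). A further probe set is annotated to both BZIP124 and BZIP126, and the part of shared sequence in their correlation was not tested.

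Further probe sets bear on how far a called difference depends on the probe set chosen. For 23 called differences another tested probe set of the same gene existed. In 22 of them all such probe sets had the same direction, and in 15 at least 1 of them was called too. The exception in direction was BZIP77. Averaging all probe sets of a gene, which brings in dim ones, ended the calls of BZIP10, BZIP77, BZIP105 and BZIP111 between embryo proper and suspensor (adjusted p = 0.18, 0.38, 0.09 and 0.87), those of BZIP68 in epidermis (0.98), inner integument (0.14) and whole seed (0.5), and that of BZIP10 in whole seed (0.19). It also took BZIP71 (0.90), BZIP105 (0.80) and BZIP110 (0.92) under 2-fold in the coat. Probe sets whose names end in _s_at or _x_at can match several transcripts by the manufacturer's naming, which applies to those used for BZIP59, BZIP70, BZIP71, BZIP105, BZIP53B, BZIP38, BZIP94 and BZIP90.

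Genes that act around bZIP factors were counted from lists of symbols, and each count stands beside the share of all probe sets called in the same contrast. GBF2, whose name stands for G-box binding factor, was the 1 other bZIP gene found, and its smallest adjusted p by limma in the 9 contrasts was 0.071 (inner integument against the other coat regions, -1.83 ± 0.70). The protein kinase genes SPK-1 to SPK-4 were the 4 found for abscisic acid signalling. SPK-1 (8.88-fold, adjusted p = 2e-08) and SPK-2 (2.19-fold, adjusted p = 0.00041) had more signal in the coat than in embryo and endosperm. In that contrast 21.5% of all probe sets were called. Both seed regulators found, LEC1-A (at least 26.9-fold, adjusted p = 9.2e-12) and WRI1B (adjusted p = 3.6e-08), were lower in the coat (21.5% of all probe sets called). Both are also on the list of embryo markers, so this is not a result separate from the marker check. Of 20 tested genes on the maturation list, mostly seed maturation proteins, 14 were lower in the coat and 1 was higher (21.5% of all probe sets called), with a median of -1.96 log2 units beside -0.03 over all probe sets, and 10 were higher in suspensor than in embryo proper against 1 lower (beside 23.1% of all probe sets called in either direction). PM29 was at least 12.4-fold lower in the coat (adjusted p = 7.2e-12) and PM9 was higher in suspensor (embryo proper minus suspensor, -6.96, adjusted p = 4.7e-10).

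Of 8 tested storage and inhibitor genes 2 were higher in the coat and 2 lower, and of 10 tested protein folding genes also 2 and 2, beside 21.5% of all probe sets called there. In endosperm 5 folding genes were higher than in embryo proper and suspensor and 0 lower of the 10 (19.2% of all probe sets called), including the chaperone gene BIP4 (1.57 ± 0.24, adjusted p = 4.1e-05). Of 8 genes for 14-3-3 proteins, which bind phosphorylated partners, 4 were higher in embryo proper than in suspensor and 1 lower (23.1% of all probe sets called). In the coat 2 were lower and 0 higher (21.5% of all), SGF14f lower by 1.84 on the log2 scale (adjusted p = 2.2e-08) and GF14B by 1.49 (adjusted p = 7.1e-06). PMM, CGS2 and SBPRP entered the maturation and storage lists by their letters alone.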

How the data were processed

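The authors deposited linear intensities, 1 for each probe set on each array. The submitters' processing notes name GCOS 1.3, and the sources used here do not give the method that summarised the probes. With the top and bottom 2% removed, the mean intensity lay between 500.05 and 500.07 for all arrays, and no further scaling was applied. Captured and ground samples differ in the extraction kit, per the labels' protocols, and 2 ng of RNA was amplified for each. Genes were named from the platform annotation, and 55 of the 58 bZIP genes were found by gene ID in the RefSeq table of Glycine_max_v4.0.

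Intensities were analysed as log2(signal + 16) with limma 3.58.1 in R 4.3.3 (lmFit, eBayes with trend), in 1 model of 10 groups over 23 arrays with 13 residual degrees of freedom and 2-sided contrasts. The procedure was tested on simulated data. A fold is written as "at least" where the dimmer side was above background on no array. The members, gene lists and tests were chosen with earlier results of these data known. Per-array values are given for called genes (up to 6 per direction and comparison), the 3 probe sets with the highest mean log2 value, and genes at least 4-fold above every other compartment.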

Additional observations from a re-analysis of the deposited data

Results flagged for a closer look

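A further 6 probe sets are annotated to more than 1 gene, at least 1 of them a bZIP gene, and stand outside the comparisons because their signal cannot be given to 1 gene. Each was above background on some arrays of the 23. The probe set shared by BZIP36 and STF2 was above background on 23 arrays and had its highest mean in inner integument (7310). The probe set shared by BZIP124 and BZIP126 was above it on 16 arrays, with its highest mean in whole seed (7380). The one shared by SBZ1, BZIP88 and BZIP89 was above it on 16 arrays (highest in leaf, 397), the one shared by BZIP76 and SOYSTGA on 11 (leaf, 692), the one shared by BZIP73A and BZIP73B on 7 (inner integument, 152), and the one shared by SBZ1 and BZIP89 on 3 (endosperm, 278). No group of 4 or more arrays exists, so single arrays were not tested as outliers.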

How the results depend on the processing

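Of 67 called differences, 26 stayed called under every alternative run (35 for 59 of the differences and 34 for the other 8, where 1 alternative gave no value), 41 were lost under at least 1, and none changed direction. The count of genes differing among the compartments was 26, and 24 to 30 with single arrays left out. Leaving out single arrays gave 8 to 13 calls for embryo proper against suspensor, 2 to 8 for endosperm, 13 to 16 for the coat, 0 to 5 for endothelium, 1 to 5 for epidermis, 3 to 9 for hilum, 5 to 11 for inner integument, 2 to 6 for outer integument and 1 to 7 for whole seed against leaf. Array weights gave 11 calls for endosperm and 11 for whole seed against leaf, leaving out both high-background arrays gave 8 for endosperm, and no minimum fold gave 23 for the coat. Endothelium had 3 calls with an offset of 1, with no filter, and with captured arrays only. Array weights ended the calls of BZIP77 between embryo proper and suspensor (adjusted p = 0.074), of BZIP48 in endothelium (0.069) and inner integument (0.11) and of BZIP53B in inner integument (0.08). Scaling to equal medians ended that of BZIP124 between whole seed and leaf (0.084), and an offset of 64 took BZIP85 (0.96) and BZIP110 (0.83) under 2-fold in the coat. The cause was not tested. Deviations of same-numbered arrays had a median r of 0.00664 over 93 pairs (7 above 0.1). Yet 16 of 23 arrays correlated best with an array of their own number. These values do not settle whether the numbers pair the samples. With a replicate block 30 genes differed among the compartments, 15 were called for the coat, 10 for inner integument and 5 for outer integument, the other counts were as before, and BZIP110 in the coat (0.82, adjusted p = 0.21) and BZIP62 in outer integument (0.054) were lost. Signal over background limits the dim genes, and 11 bZIP genes could not be tested.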
